A study of Homo sapiens with 6 samples.

Results

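The interleukin-1 genes described here are 10 genes chosen by name, namely the cytokine genes IL1A, IL1B, IL18 and IL33, the antagonist IL1RN, the receptor genes IL1R1, IL1R2, IL1RAP and IL1RL1, and the protease gene CASP1. Every probe set annotated to 1 of them was taken, which gave 26 probe sets of their own out of 54613 tested, plus 1 that CASP1 shares with CARD16. The genes were chosen from the comparison of the same 6 arrays, with its results known. Their differences, and which of them passed the threshold of the fit over the whole array, are therefore a description and no evidence of their own.

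Interleukin-1 alpha and interleukin-1 beta are inflammatory cytokines that bind the same receptor, IL1R1, which then recruits the accessory chain IL1RAP and signals through MyD88 and IRAK kinases to NF-kB and MAP kinases. Interleukin-1 beta and interleukin-18 are made as precursors that caspase-1 cleaves in the inflammasome, whereas the precursor of interleukin-1 alpha is itself active. IL1RN and IL1R2 restrain the pathway, the first as a ligand that does not signal and the second as a decoy receptor, and IL1RL1 is the receptor of interleukin-33.

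RNA was hybridised to Affymetrix HG-U133 Plus 2.0 arrays from the 1833 line, a bone-seeking subline of the human breast cancer line MDA-MB-231. The 3 arrays labelled S153E-RKIP came from cells transduced with a lentiviral vector for S153E-RKIP, a mutant of the Raf-1 inhibitor RKIP that the series calls the more potent form, and kept in puromycin. The 3 control arrays came from 1833 cells with the vector alone. Both groups grew in the same serum-containing medium, and the labels name neither the promoter of the vector nor whether the transduced cells were a clone or a pool. The comparison addresses which genes differ between the cells labelled S153E-RKIP and the control cells.

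The labels speak of biological replicates but not of how they were prepared, so any p-value reflects only how far these samples spread, and that spread may be technical, and the number of arrays limits the precision. PEBP1, which encodes RKIP, was read on its brightest probe set, 211941_s_at. It read 11.74, 11.64 and 11.61 on S153E-RKIP replicates 1, 2 and 3, against 11.77, 11.73 and 11.77 on control replicates 1, 2 and 3. It was not higher on the arrays labelled S153E-RKIP (difference -0.093, SE 0.058). The other PEBP1 probe sets, 210825_s_at and 205353_s_at, differed by -0.082 and -0.13, and none was called. The sources used here do not say whether the PEBP1 probe sets cover the introduced sequence. The source name of those 3 samples mentions an shRNA against HMGA2, while HMGA2 differed by -0.023 (SE 0.058) on its brightest probe set and none of its 9 probe sets was called. On 1 of the 9, 1567224_at, the groups were apart, at 7.12, 7.12 and 7.24 on S153E-RKIP replicates 1, 2 and 3 against 7.60, 7.35 and 7.30 on control replicates 1, 2 and 3, a difference of -0.26 (SE 0.089). Every direction below therefore rests on the labels. An array differed from the mean of the other 2 of its group by a root mean square of 0.15 to 0.17 on S153E-RKIP arrays and 0.12 to 0.13 on control arrays, on the log2 scale. VIM, CD44, KRT8, KRT18 and EGFR, markers of MDA-MB-231 cells, all lay above the median level of all genes (6.64). Of 3 genes listed as low in these cells, ERBB2 (7.71) and ESR1 (6.65) also lay above it, and PGR (4.04) lay below. Levels are given as log2 RMA signals, and differences are on the same scale, S153E-RKIP minus control.

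IL1A and IL1B showed the largest differences of the 10 genes, and they lie next to each other among the protein-coding genes of chromosome 2. The 250 bases before the start of each gene are shown because these neighbours were higher together. They are RefSeq sequences of GRCh38.p14, on the minus strand, at chr2:112784494-112784743 for IL1A and chr2:112836780-112837029 for IL1B. Capitals mark matches, on either strand, to TGANTCA (the AP-1 motif), TTNNGNAA (a relaxed C/EBP motif), TATAAA (the letters of the TATA box) or the NF-kB consensus.
IL1A: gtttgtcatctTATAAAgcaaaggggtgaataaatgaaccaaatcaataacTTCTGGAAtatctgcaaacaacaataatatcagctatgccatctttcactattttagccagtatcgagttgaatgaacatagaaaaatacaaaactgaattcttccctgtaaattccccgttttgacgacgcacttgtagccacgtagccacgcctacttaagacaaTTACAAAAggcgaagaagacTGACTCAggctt
IL1B: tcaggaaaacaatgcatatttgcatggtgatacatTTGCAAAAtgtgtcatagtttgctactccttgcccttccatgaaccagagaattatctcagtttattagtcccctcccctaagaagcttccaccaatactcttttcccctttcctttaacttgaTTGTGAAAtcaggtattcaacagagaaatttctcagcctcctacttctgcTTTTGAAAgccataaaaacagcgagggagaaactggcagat
The IL1A stretch held 1 TGANTCA match at bases -12 to -6 from the start and 2 TTNNGNAA matches. It also held 1 TATAAA match, at bases -239 to -234. The bases after the start, not shown, held another TGANTCA. The IL1B stretch held 3 TTNNGNAA matches and none to the other patterns. Variants of a pattern are not marked, and whether any match is used was not tested. Of 35116 windows of 300 bases around gene starts, 7.7% held TGANTCA, 36.8% TTNNGNAA, 11.5% TATAAA and 11.3% the NF-kB consensus. The matches overlap no other match in these stretches. Windows were found for 8 of the 10 genes. IL18 and CASP1 had none.

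IL1A, the gene of interleukin-1 alpha, lies at chr2:112773925-112784493 on GRCh38.p14. Its probe set 210118_s_at read 8.20, 8.45 and 8.50 on S153E-RKIP replicates 1, 2 and 3, against 5.29, 5.60 and 5.28 on control replicates 1, 2 and 3. All 3 S153E-RKIP arrays lay above all 3 control arrays, with a gap of 2.60 between the groups. The means were 8.38 ± 0.16 and 5.39 ± 0.18 (SD, n = 3 each) for S153E-RKIP and control, a difference of 2.99 (SE 0.11, 95% confidence interval 2.74 to 3.24) or 7.95-fold. The control mean lay below the median level of all probe sets (5.62), and signal over background was not measured there. These are bulk samples, so more cells with the transcript and more RNA per cell cannot be told apart.

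The other IL1A probe set, 208200_at, did not show this difference. It read 5.59, 5.99 and 5.99 on S153E-RKIP replicates 1, 2 and 3, against 5.99, 6.12 and 6.10 on control replicates 1, 2 and 3. The groups touched at 5.99 without otherwise overlapping, and 3 of its 6 values were exactly equal. Over all probe sets, 10.4% had 3 or more equal values. Its difference was -0.21 (SE 0.11, 95% confidence interval -0.46 to 0.036). With the mean of both probe sets the difference of IL1A was 1.39 (SE 0.099). The sources used here do not say which IL1A transcripts each probe set pairs with.

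IL1B, the gene of interleukin-1 beta at chr2:112829751-112836779, was read alike by both of its probe sets. 205067_at read 9.14, 9.93 and 9.61 on S153E-RKIP replicates 1, 2 and 3, against 7.13, 7.54 and 7.37 on control replicates 1, 2 and 3. 39402_at read 9.00, 9.79 and 9.51 on the S153E-RKIP arrays, against 7.04, 7.38 and 7.12 on the control arrays. On both probe sets the groups were apart, by 1.59 and 1.62, and replicate 1 was the lowest and replicate 2 the highest of each group. The means of 205067_at were 9.56 ± 0.40 and 7.35 ± 0.20 (SD, n = 3 each) for S153E-RKIP and control, a difference of 2.21 (SE 0.18, 95% confidence interval 1.79 to 2.63) or 4.62-fold. The difference of 39402_at was 2.25 (SE 0.18), or 4.75-fold. Within the S153E-RKIP group IL1B ranged over 0.79 on either probe set, against 0.30 for IL1A on 210118_s_at. With 1 array left out at a time the IL1B difference on 205067_at ran between 2.02 and 2.42.

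**Figure D1:**
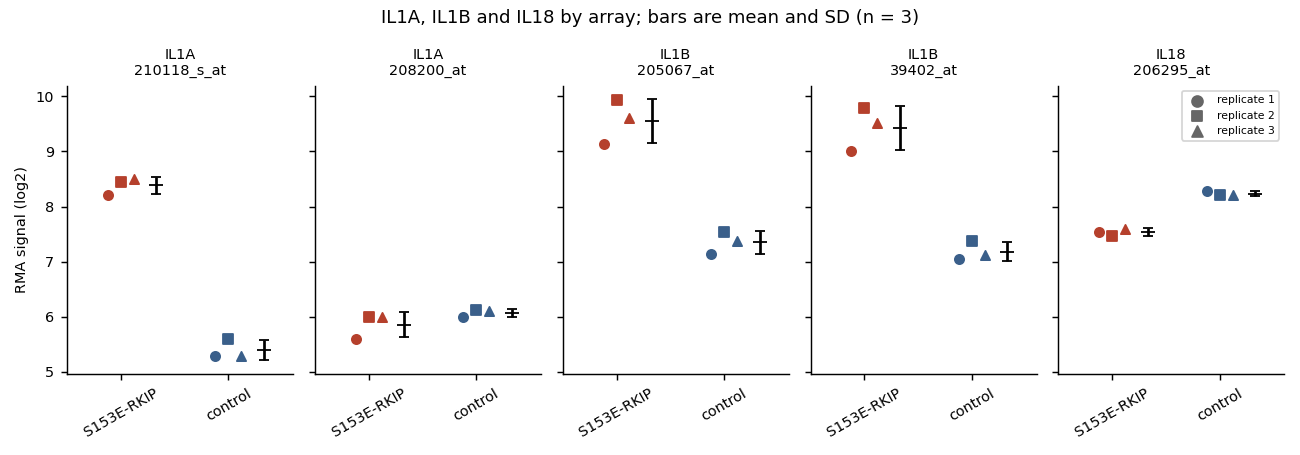
Log2 RMA signal of the probe sets of IL1A, IL1B and IL18 on each array (points, with a shape for each replicate number) with the mean and SD of each group (bars, n = 3), S153E-RKIP left of control in each panel. The S153E-RKIP arrays lie above the control arrays for IL1A 210118_s_at and both IL1B probe sets, and below them for IL18. For IL1A 208200_at the groups touch at a shared value.

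IL18, the gene of interleukin-18 at chr11:112143260-112164094, was the only 1 of the 10 genes with a lower call. Its single probe set, 206295_at, read 7.55, 7.46 and 7.60 on S153E-RKIP replicates 1, 2 and 3, against 8.28, 8.20 and 8.21 on control replicates 1, 2 and 3. The arrays of each group lay close together, within 0.14 for S153E-RKIP and 0.081 for control, and a gap of 0.60 parted them. The means were 7.54 ± 0.069 and 8.23 ± 0.044 (SD, n = 3 each) for S153E-RKIP and control, a difference of -0.70 (SE 0.064, 95% confidence interval -0.84 to -0.55), which is 1.62-fold lower.

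IL33 (chr9:6215149-6257983), the gene of a cytokine released from damaged barrier cells, had low signals in both groups. Its probe set 209821_at read 3.58, 3.54 and 3.67 on S153E-RKIP replicates 1, 2 and 3, against 3.65, 3.47 and 3.39 on control replicates 1, 2 and 3. The groups overlapped. Their difference was 0.095 (SE 0.082), with a 95% confidence interval of -0.092 to 0.28.

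IL1RN, the gene of the receptor antagonist at chr2:113099360-113134014, had 5 probe sets, and none was called. The brightest, 212659_s_at, read 6.47, 6.39 and 6.41 on S153E-RKIP replicates 1, 2 and 3, against 6.28, 6.40 and 6.40 on control replicates 1, 2 and 3. The groups overlapped, with a difference of 0.063 (SE 0.065, 95% confidence interval -0.085 to 0.21). On 212657_s_at alone of the 5 the groups were apart, at 4.39, 4.54 and 4.40 on S153E-RKIP arrays against 4.22, 4.23 and 4.24 on control arrays, a difference of 0.21 (SE 0.065). The other 3 differed by -0.037 on 216245_at, 0.16 on 216243_s_at and -0.063 on 216244_at.

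IL1R1, the signalling receptor gene at chr2:102070390-102179874, had the largest difference among the probe sets that were not called. 202948_at read 5.29, 5.61 and 5.70 on S153E-RKIP replicates 1, 2 and 3, against 4.87, 5.18 and 5.03 on control replicates 1, 2 and 3. The groups were apart, with means of 5.53 ± 0.22 and 5.03 ± 0.15 (SD, n = 3 each) for S153E-RKIP and control and a difference of 0.50 (SE 0.12, 95% confidence interval 0.23 to 0.77). Both means lay below the median level of all probe sets. The other IL1R1 probe set, 215561_s_at, differed by -0.023 (SE 0.071), with overlapping groups and 3 exactly equal values.

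IL1RAP, the accessory chain gene at chr3:190514085-190659750, was read at 7.19, 7.25 and 7.23 on S153E-RKIP replicates 1, 2 and 3 by 205227_at, against 7.005, 7.15 and 6.95 on control replicates 1, 2 and 3. The groups were apart but the difference was small, at 0.19 (SE 0.069, 95% confidence interval 0.030 to 0.35), and the probe set was not called. On 210233_at it was 0.12 (SE 0.098), and the groups overlapped.

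IL1RL1, the interleukin-33 receptor gene at chr2:102311563-102352356, had 4 probe sets with differences of 0.049 to 0.32, none of them called. On 210442_at the groups were apart, at 5.39, 5.55 and 5.28 on S153E-RKIP replicates 1, 2 and 3 against 5.20, 4.99 and 5.05 on control replicates 1, 2 and 3, a difference of 0.32 (SE 0.088). On the brightest probe set, 242809_at, it was 0.13 (SE 0.095), and the groups overlapped there and on the other 2. IL1R2, the decoy receptor gene at chr2:101991960-102028544, differed by 0.052 (SE 0.089) on 205403_at and 0.15 (SE 0.085) on 211372_s_at, with overlapping groups on both.

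CASP1, the gene of the interleukin-1 converting protease at chr11:105025443-105036686, had 5 probe sets of its own with differences of 0.037 to 0.30, none of them called. 209970_x_at read 7.47, 7.52 and 7.64 on S153E-RKIP replicates 1, 2 and 3, against 7.06, 7.33 and 7.32 on control replicates 1, 2 and 3, a difference of 0.30 (SE 0.089). The groups were also apart on 211366_x_at, by a mean of 0.23 (SE 0.088), and overlapped on the other 3. Both of these are probe sets of a type that can pair with several transcripts. The probe set that CASP1 shares with CARD16, 1552703_s_at, differed by -0.12 (SE 0.11) and was assigned to neither gene.

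**Figure D2:**
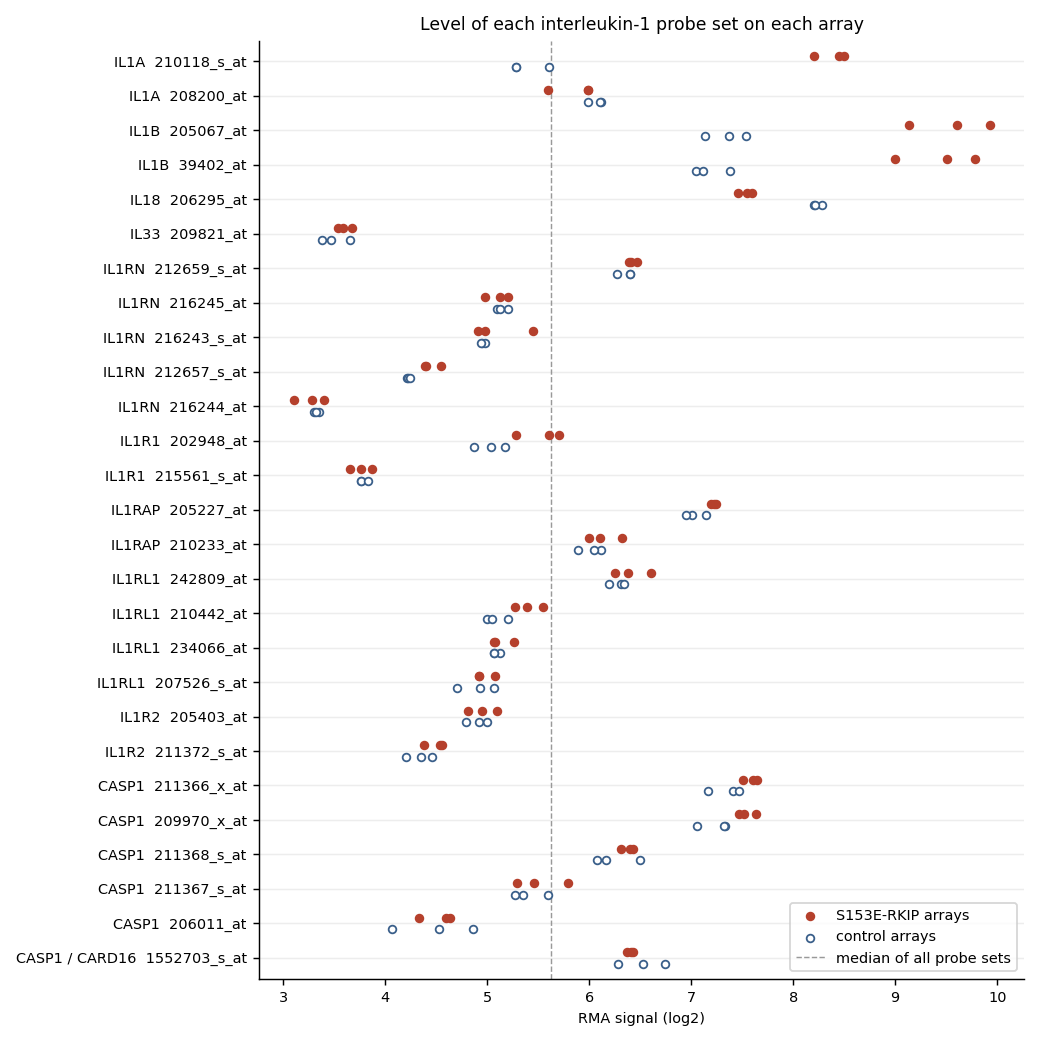
Log2 RMA signal of each of the 26 probe sets of the interleukin-1 genes and of the shared CASP1 and CARD16 probe set on every array, with S153E-RKIP arrays as filled points above the control arrays as open points. The dashed line is the median level of all probe sets (5.62), below which 14 of the 26 lie by their mean over the 6 arrays.

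Of the 26 probe sets, 4 were called, 3 of them higher on S153E-RKIP arrays (IL1A 210118_s_at and both of IL1B) and 1 lower (IL18), where a call is a limma adjusted p under 0.05 over all probe sets. Over the whole array 1.05% of probe sets were called, 0.366% higher and 0.685% lower. The groups were apart on 10 of the 26, 9 of them with S153E-RKIP above, while over all probe sets 17.1% had groups that did not overlap. Because the genes were chosen from this comparison, nothing is read from these counts. The median difference of the 26 was 0.13, beside 0.010 over all probe sets, and 21 of the 26 differences were above 0. The 22 that were not called differed by -0.21 to 0.50, and their confidence intervals reached from -0.46 to 0.77 at the widest. The smallest difference among the called was that of IL18, at -0.70, and the largest among the others was that of IL1R1, at 0.50.

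**Figure D3:**
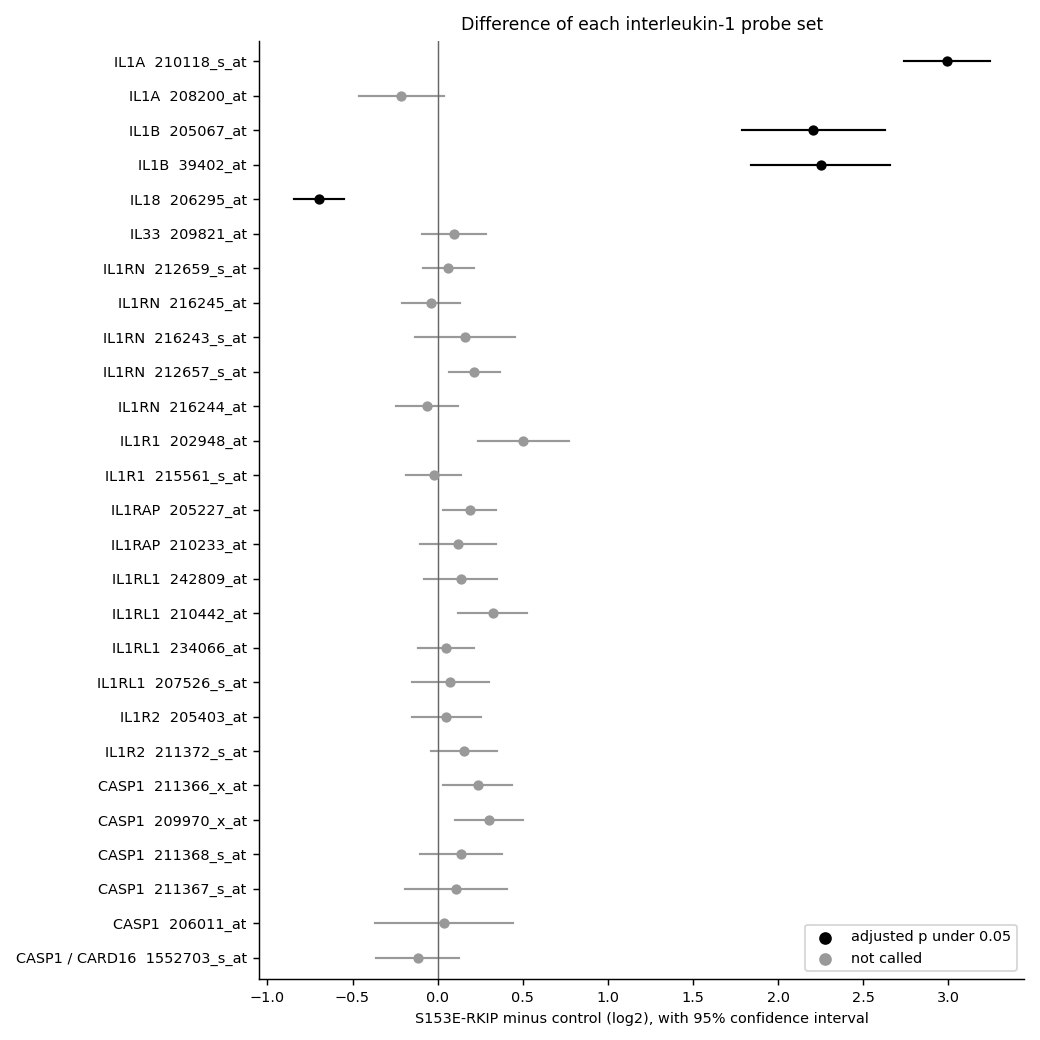
Difference of each probe set of the interleukin-1 genes, S153E-RKIP minus control in log2 units, with its 95% confidence interval from the limma fit (bars) and calls at an adjusted p under 0.05 in black. The 4 calls stand at 2.99 for IL1A, 2.21 and 2.25 for IL1B and -0.70 for IL18, and the other intervals lie between -0.46 and 0.77.

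Most of these genes sit in 2 stretches of chromosome 2. The first, from IL1R2 to IL18RAP (chr2:101991960-102452565, 461 kb), holds 6 protein-coding genes, all of the interleukin-1 receptor family, and none was called. Besides IL1R2, IL1R1 and IL1RL1 these are IL1RL2, the interleukin-36 receptor gene, with a difference of 0.020 (SE 0.16), IL18R1 with 0.066 (SE 0.070) and IL18RAP with 0.0061 (SE 0.093). The second, from IL1A to IL1RN (chr2:112773925-113134014, 360 kb), holds 9 protein-coding genes, of which IL1A and IL1B were called.
The 6 genes between IL1B and IL1RN encode other ligands and antagonists of the family, and none was called. Their differences were -0.091 for IL37, -0.15 for IL36G, -0.043 for IL36A, 0.18 for IL36B, 0.12 for IL36RN and 0.16 for IL1F10. The higher signal of the 2 neighbours did not extend to a called difference in these 6 genes, whose own mean levels over the arrays all lay below the median level of all genes.

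**Figure D4:**
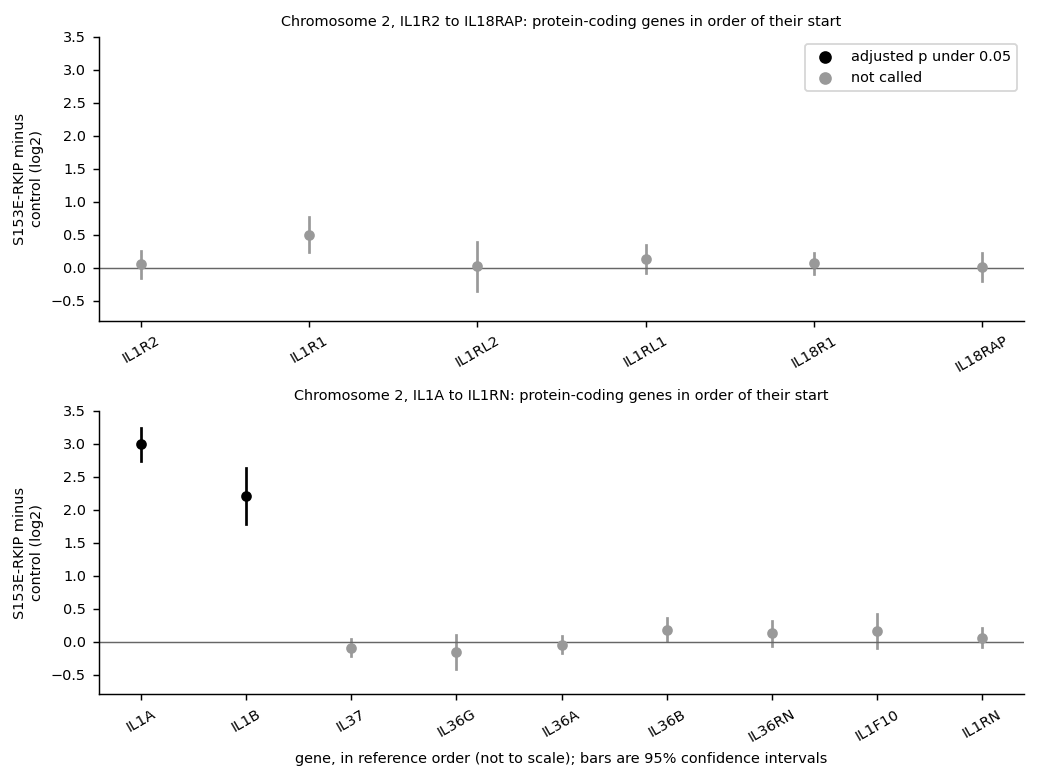
Differences of the protein-coding genes of both chromosome 2 stretches in the order of their starts, S153E-RKIP minus control in log2 units from the brightest probe set of each gene, with 95% confidence intervals. In the stretch from IL1A to IL1RN the calls are IL1A at 2.99 and IL1B at 2.21, and the 7 other genes lie between -0.15 and 0.18.

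The genes around these members were counted next, in 4 lists with 1 probe set per gene, and with p-values adjusted over all 19775 genes. The lists were chosen with earlier results of these arrays known, so their counts and p-values describe these arrays and are no separate evidence. Over all genes 1.90% were called, 0.688% higher and 1.21% lower, with a median difference of 0.010, and 15.7% had an unadjusted p under 0.05. At 1 probe set per gene, 3 of the 10 interleukin-1 genes were called. Among 13 other family and receptor genes none was called in limma, and 3 had an unadjusted p under 0.05, beside 15.7% of all genes. The smallest p values belonged to IL1RAPL1, a receptor relative known from neurons, at -0.33 (SE 0.099, adjusted p = 0.164), and IL18BP, the secreted inhibitor of interleukin-18, at 0.16 (SE 0.065, adjusted p = 0.292). The median of this list was 0.063.

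Among 25 measured genes of inflammasome assembly, cleavage and release none was called in limma, and 3 had an unadjusted p under 0.05, again beside 15.7% of all genes. NEK7, a kinase that NLRP3 needs for its assembly, differed by -0.24 (SE 0.057, adjusted p = 0.0941), and TXNIP, which binds thioredoxin and NLRP3, by 0.18 (SE 0.063, adjusted p = 0.236). The list median was 0.016. NEK7 was called with trend and robust variance estimation (adjusted p = 0.0142), and AIM2, a DNA sensor, was called without S153E-RKIP replicate 1.

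Among 24 measured genes of receptor signalling 1 was called in limma. IRAK2, a kinase that carries the signal on from MyD88, was higher on S153E-RKIP arrays. It read 8.53, 8.92 and 8.76 on S153E-RKIP replicates 1, 2 and 3, against 7.72, 8.01 and 7.84 on control replicates 1, 2 and 3, a difference of 0.88 (SE 0.11, adjusted p = 0.00591). The groups were apart. Its 2 dimmer probe sets differed by 0.28 and 0.045 and were not called, and without control replicate 1 the call was lost (0.81, adjusted p = 0.0517). The list median was -0.040. An unadjusted p under 0.05 was found for 6 of the 24 (15.7% of all genes), and IRAK2 was the 1 of them above 0. Among the other 5 were IRAK1, the kinase that acts beside IRAK2, at -0.33 (SE 0.071, adjusted p = 0.0618), and TAB2, an adaptor of the kinase TAK1, at -0.23 (SE 0.054, adjusted p = 0.0900). Neither was called, but IRAK1 was lower and called in some alternative fits, and TAB2 in fewer. Both are named here after their values were seen.

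The fourth list held genes known to be induced by interleukin-1. Of 37 measured, 15 rose, 1 fell and 21 did not pass the test, with a list median of 0.37. This list was written with earlier results of these arrays known, so neither its count nor the p-values of its genes are independent evidence of a direction. The 6 with the smallest p were 4 neutrophil-attracting chemokine genes, C3 and NFKBIZ.
CXCL1 read 11.37, 11.11 and 11.01 on S153E-RKIP replicates 1, 2 and 3, against 8.40, 8.81 and 8.52 on control replicates 1, 2 and 3, and rose by 2.59 (SE 0.12, adjusted p = 3.95e-05). CXCL3 rose by 2.80 (SE 0.14, adjusted p = 6.03e-05) and CXCL8 by 1.82 (SE 0.11, adjusted p = 1.46e-04) on its brightest probe set. The other CXCL8 probe set differed by 2.34. CXCL2 rose by 1.95 (SE 0.13, adjusted p = 2.10e-04) on its brightest probe set, and its other probe sets differed by 0.56 and 0.094. All 4 encode ligands of CXCR2. The brightest probe sets of CXCL8 and CXCL2, 202859_x_at and 209774_x_at, are also of a type that can pair with several transcripts. With such probe sets left out, both genes were still called.
C3, the central complement component, rose by 2.45 (SE 0.19, adjusted p = 5.87e-04). NFKBIZ, which encodes a nuclear partner of NF-kB induced by interleukin-1, rose by 1.04 (SE 0.082, adjusted p = 6.53e-04). The 1 gene that fell was HAS2, a hyaluronan synthase gene named here after its value was seen, at -0.47 (SE 0.083, adjusted p = 0.0309). With 1 array left out at a time its call was kept only without S153E-RKIP replicate 1. PTGS2, the cyclooxygenase-2 gene that interleukin-1 induces in many cells, was likewise looked up after the values were seen, and at 0.18 (SE 0.25) it did not pass the test.

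The count of 16 called response genes fell to 9 without control replicate 1, without control replicate 3 or without S153E-RKIP replicate 2, and to 10 without S153E-RKIP replicate 3. The 9 that were called whichever 1 of the 6 arrays was left out were C3, CXCL1, CXCL2, CXCL3, CXCL8, ICAM1, IL6, NFKBIZ and TNFAIP3. None of 10 measured blood cell markers was called, and 9 of the 10 lay below the median level of all genes. The log2 of their summed signal was 8.82 to 8.94 on S153E-RKIP arrays and 8.66 to 8.77 on control arrays, and its part in the results above was not tested. PTPRC, the defining leukocyte marker, averaged 3.98 on S153E-RKIP arrays and 3.88 on control arrays. None of 8 fibroblast and endothelial markers was called. Of the 8, COL1A1 (8.23) and PECAM1 (7.22) lay above the median level of all genes and the other 6 below it.

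**Figure D5:**
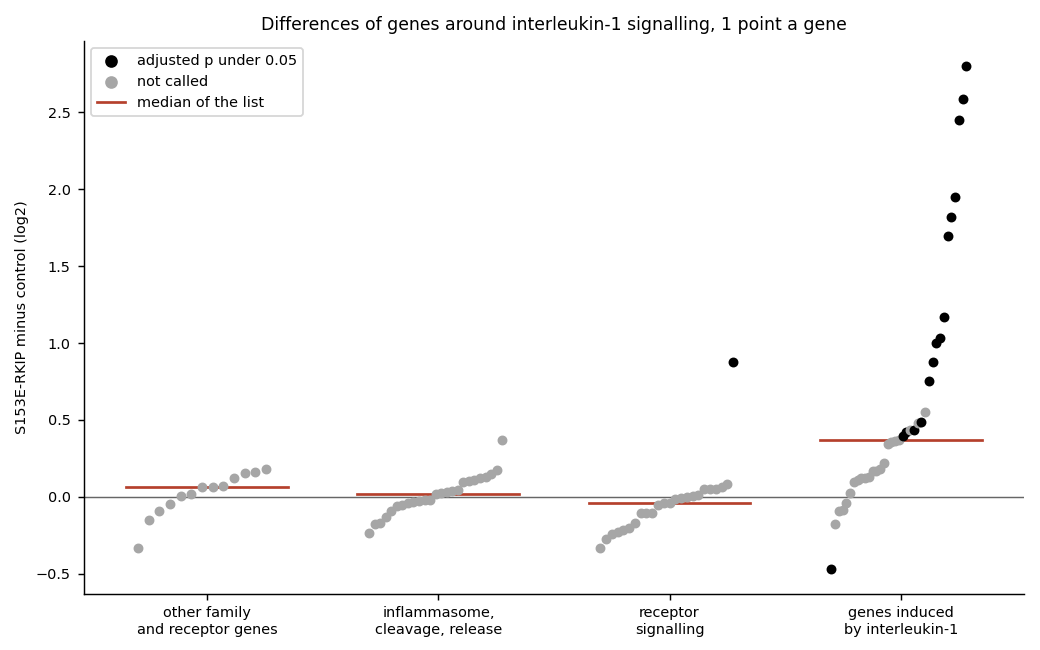
Differences of the measured genes of the 4 lists around interleukin-1 signalling, S153E-RKIP minus control in log2 units, 1 point per gene in order of size, with calls at an adjusted p under 0.05 in black and the list median as a line. The medians are 0.063 for other family and receptor genes, 0.016 for inflammasome, cleavage and release, -0.040 for receptor signalling and 0.37 for genes induced by interleukin-1.

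The genes whose profile over the 6 arrays came nearest to IL1A and IL1B were found by the root mean square distance between profiles, each centred on its own mean. Nearest to IL1A were VNN1, a pantetheinase gene, at 0.091, COXFA4L3, a mitochondrial protein gene, at 0.19, CXCL3 at 0.25, BCL2A1, which protects cells from apoptosis, at 0.27 and CXCL1 at 0.28. VNN1 read 7.83, 8.31 and 8.34 on S153E-RKIP replicates 1, 2 and 3, against 5.16, 5.51 and 5.07 on control replicates 1, 2 and 3. Its difference was 2.92 on this probe set and 1.35 on its other. Like IL1A it had a lower S153E-RKIP replicate 1 and a higher control replicate 2. That order was not particular to this pair, as IL1B, COXFA4L3, C3, CXCL2, MIR146A and IL6 showed it too. In CXCL3, BCL2A1 and CXCL1 S153E-RKIP replicate 1 was instead the highest of its group. Nearest to IL1B were C3 at 0.23, CXCL2 at 0.25, COXFA4L3 at 0.25, MIR146A at 0.29 and IL6 at 0.30. IL1A and IL1B themselves were 0.43 apart. Such a distance also grows where the differences between the groups are of unlike size, and these were 2.99 for IL1A and 2.21 for IL1B. These distances are a description over 6 arrays, which share the 2 groups.

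MIR146A is the gene of a microRNA that restrains IRAK1 and TRAF6, and the array reads a longer transcript annotated to it rather than the mature microRNA. Its nearer probe set read 7.02, 7.70 and 8.03 on S153E-RKIP replicates 1, 2 and 3, against 5.51, 6.14 and 5.59 on control replicates 1, 2 and 3. The groups were apart, with a difference of 1.84 (SE 0.25, limma adjusted p = 0.00962). MIR146A was picked because its profile lay near that of IL1B on these same arrays, which favours separated groups. Its difference and p-value are therefore a description and no separate evidence. The call was lost without control replicate 1 (adjusted p = 0.0878), control replicate 3 (0.0659) or S153E-RKIP replicate 2 (0.0856), and its other probe set differed by 0.065.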

How the data were processed

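RNA from 3 S153E-RKIP and 3 control samples was read on 6 arrays. The deposited values are log2 signals, 1 per probe set and array, which the authors computed by RMA, per the submitters' processing notes. The sources used here give no version of it. The table was used as deposited. Of 54675 probe sets, 62 control probe sets were left out. Gene symbols came from the platform annotation, with 41091 of the tested probe sets carrying 1 symbol, 1801 several and 11721 none.

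Groups were compared in limma 3.58.1 under R 4.3.3 (lmFit and eBayes without trend, two-sided, Benjamini-Hochberg over all 54613 probe sets). The lists used the brightest probe set of each of 19775 genes, and a call is an adjusted p under 0.05. The fit was tested on simulated data. The members and lists were chosen with earlier results of these data known. Of each list up to 6 called genes by smallest p are named, or else the 2 with the smallest p, with the 5 nearest profiles of IL1A and of IL1B and the genes of both chromosome 2 stretches.

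The alternatives were other summaries per gene, filters, normalisations and variance estimates, array weights, a replicate block, a threshold of 0.01 and leaving out 1 array at a time. Figures used matplotlib 3.10.9.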

Additional observations from a re-analysis of the deposited data

How the results depend on the processing

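The same 4 probe sets of the interleukin-1 genes (IL1A 210118_s_at, both of IL1B and IL18) were called under every alternative run on probe sets, and no called result changed sign. Among the results that were not called, 9 probe sets of these genes and HMGA2 took the opposite sign under some alternatives, in 14 values of -0.17 to 0.030. IL1A differed by 1.39 with the mean of its probe sets and by 2.93 to 3.10 with 1 array left out. In a paired fit with a replicate block, IL1R1 202948_at was also called (5 called in all) and 18 response genes were called; IL1A stayed at 2.99. The deviations of same-numbered samples correlated at 0.086, 0.19 and -0.022, and not every sample correlated best with its own number, so the numbers were not taken as pairs.

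The called response genes numbered 16, but 9 at an adjusted p under 0.01 and 9 to 18 with 1 array left out. Signalling had 1 called gene, IRAK2. It had 2, with IRAK1 lower, with array weights, equal array medians or the mean of probe sets, 3, with IRAK1 and TAB2 lower, with trend and robust estimation or with probe sets above the median level only, and 0 to 2 with 1 array left out (0 without control replicate 1, 2 without S153E-RKIP replicate 1). Processing had 0 called genes, 1 with trend and robust estimation, and 0 to 1 with 1 array left out. The cause was not tested. Over the whole array 574 probe sets and 376 genes were called, against 939 and 600 with trend and robust estimation, 245 and 147 at an adjusted p under 0.01, and 209 to 450 and 124 to 303 with 1 array left out, where fewer samples enter the fit. Signal over background was not measured, and 14 of the 26 probe sets lay below the median level.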
